A study of Rattus norvegicus with 6 samples.

Results

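The conjugating enzymes of rat liver, the UDP-glucuronosyltransferases (UGT), the cytosolic sulfotransferases (SULT) and the glutathione S-transferases (GST), were compared between livers whose wounds had been covered with different haemostatic dressings. Members were the protein-coding genes with a Ugt, Sult or Gst family symbol that had at least 10 counts in at least 3 libraries. Of the 20104 genes in the table, 54 carried such a symbol and 47 passed the count minimum: 13 UGT, 12 SULT and 22 GST genes. Liver was collected on day 14 after liver trauma, from 3 samples dressed with AKOC and 3 dressed with Quik-clot, the control dressing. AKOC belongs to a study of kaolin scales anchored on cotton, kaolin being a clay that triggers clotting, and Quik-clot is a commercial haemostatic dressing. All 6 livers had been injured and no uninjured liver is compared here. The sources used here give no strain, age or sex, and do not say whether each sample was a different animal.

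Conjugation makes lipid-soluble molecules water-soluble enough to leave in bile or urine. UGT enzymes sit in the endoplasmic reticulum and transfer glucuronic acid from UDP-glucuronate, SULT enzymes transfer sulfate from the donor PAPS in the cytosol, and GST enzymes couple glutathione to reactive, electron-poor molecules. Hepatocytes hold most of this capacity in the body, and in rats several SULT genes differ between male and female liver under the control of the growth hormone rhythm.

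The 6 libraries held between 40402312 and 41455378 counts, so depth was nearly equal. Hepatocyte transcripts dominated every library: the summed FPKM of 11 hepatocyte markers ran from 74751 to 98724 in AKOC livers and from 70736 to 82269 in Quik-clot livers. Quik-clot replicate 2 stood apart from its group by Pearson correlations of log2(CPM + 2) across genes. These were 0.984, 0.980 and 0.978 to the AKOC libraries and 0.976 and 0.973 to the other Quik-clot libraries. Quik-clot replicate 3 stood apart by its acute phase genes: A2m, a rat acute phase protein, had 2403 CPM there and between 5.29 and 91.5 CPM in the other libraries.

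The first sequences shown are those just upstream of the UGT2B genes, because the most abundant UGT, Ugt2b, was lost from a single library while its neighbours were not. Ugt2b, Ugt2b15, Ugt2b37 and Ugt2b35 lie on the same strand of chromosome 14, and RefSeq (GRCr8) gives them closely related start regions. The 110 bases before each start are printed 5′ to 3′, at chr14:20985339-20985448, chr14:21122756-21122865, chr14:21172026-21172135 and chr14:21208331-21208440, all on the plus strand. Capitals mark a stretch of 31 bases that the 4 genes share letter for letter.
Ugt2b: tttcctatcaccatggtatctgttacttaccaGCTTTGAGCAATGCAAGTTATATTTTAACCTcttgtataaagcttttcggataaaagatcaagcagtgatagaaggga
Ugt2b15: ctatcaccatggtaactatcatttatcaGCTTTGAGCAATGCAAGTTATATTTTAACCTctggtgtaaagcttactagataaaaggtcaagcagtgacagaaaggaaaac
Ugt2b37: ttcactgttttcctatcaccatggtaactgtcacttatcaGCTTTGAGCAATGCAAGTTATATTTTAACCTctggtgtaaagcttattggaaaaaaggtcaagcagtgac
Ugt2b35: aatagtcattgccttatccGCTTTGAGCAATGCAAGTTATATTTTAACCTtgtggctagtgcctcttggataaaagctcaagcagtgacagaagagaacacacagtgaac
Only 5 of the 33469 rat promoter windows searched, 250 bases upstream of each gene start and on either strand, held this stretch (0.01%), the other being that of LOC134478834. These letters are from the reference genome and not from the animals studied.

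The second set is from the UGT1A locus on chromosome 9, where each gene has a first exon and promoter of its own and all share the remaining exons. Ugt1a1 lay lower and Ugt1a6 and Ugt1a7c averaged higher in AKOC livers, so their 250 upstream bases (RefSeq, GRCr8, plus strand) are set side by side, at chr9:96248893-96249142, chr9:96194768-96195017 and chr9:96187132-96187381. Capitals mark GCGTG, the core of the site bound by the aryl hydrocarbon receptor (AHR), a sensor of planar aromatic molecules, or its complement on the other strand.
Ugt1a1: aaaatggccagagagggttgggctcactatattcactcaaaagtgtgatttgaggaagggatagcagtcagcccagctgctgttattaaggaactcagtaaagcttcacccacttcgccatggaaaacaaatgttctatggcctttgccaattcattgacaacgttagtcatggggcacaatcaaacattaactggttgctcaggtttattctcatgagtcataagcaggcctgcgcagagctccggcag
Ugt1a6: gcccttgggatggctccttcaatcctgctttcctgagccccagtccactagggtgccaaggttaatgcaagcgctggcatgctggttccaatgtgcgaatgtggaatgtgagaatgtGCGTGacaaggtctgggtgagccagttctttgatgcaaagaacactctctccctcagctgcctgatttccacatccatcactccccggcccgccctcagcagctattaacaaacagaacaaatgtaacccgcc
Ugt1a7c: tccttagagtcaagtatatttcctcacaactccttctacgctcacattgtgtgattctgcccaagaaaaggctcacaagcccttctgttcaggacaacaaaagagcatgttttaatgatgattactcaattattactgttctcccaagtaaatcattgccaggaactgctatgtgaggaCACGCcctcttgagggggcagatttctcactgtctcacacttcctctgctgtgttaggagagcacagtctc
GCGTG stood 133 bases before the Ugt1a6 start, its complement 71 bases before the Ugt1a7c start, and neither in the Ugt1a1 window. Among the other UGT1A members, a window was found for Ugt1a2 and Ugt1a3, of which Ugt1a3 also held GCGTG, 140 bases before its start. The motif occurred on either strand in 25.89% of all windows of this length, so its presence is a description of these letters only.

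The members spanned a wide range of levels, compared here as FPKM, which divides by transcript length and library total. Sult1e1 was the most abundant, with a mean of 1204 FPKM over the 6 libraries, followed by Gsta1 (772), Ugt2b (694), Gsta2 (597) and Sult2a1 (523). The least abundant was Sult1d1, with a mean of 0.127 FPKM. Of the 7 genes that missed the count minimum, Gstt4, Sult5a1, Sult6b2, Ugt2a1 and Ugt2b7 had under 10 counts in every library. Ugt1a8 and Ugt1a9 reached it in Quik-clot replicate 1 alone, with 17 and 13 counts. Just inside it, Sult4a1 passed through the AKOC libraries alone. Sult1d1 passed in 4 libraries, 3 Quik-clot and 1 AKOC, so its Quik-clot counts alone met the minimum. Sult2a2 and Ugt1a2 passed in 4 libraries each, 2 per dressing.

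**Figure D1:**
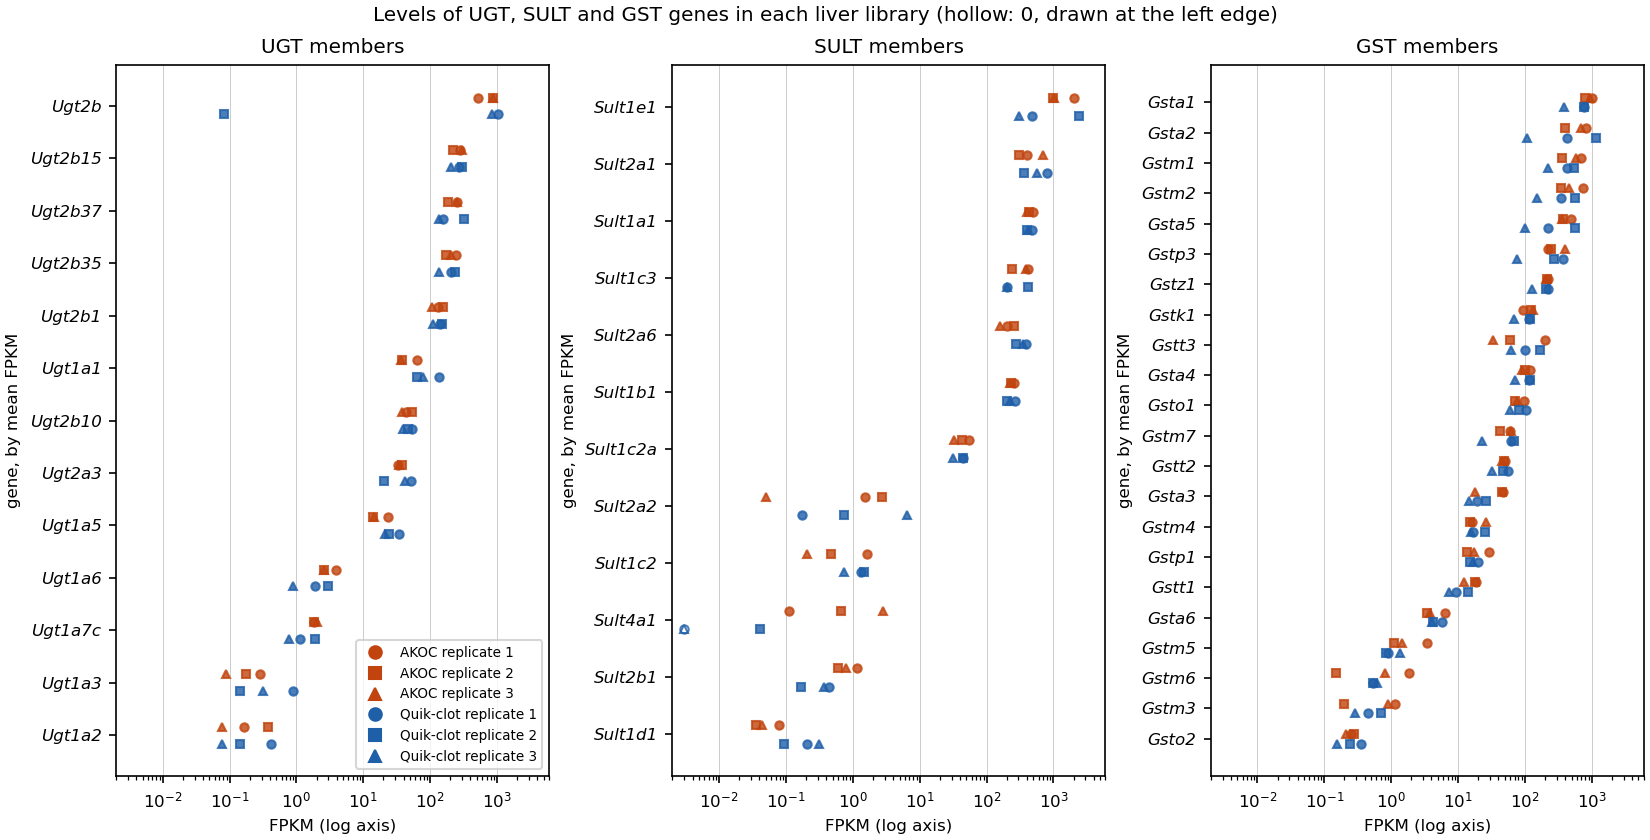
FPKM (log axis) of each UGT, SULT and GST gene in each library, AKOC in orange above Quik-clot in blue, with genes ordered by mean FPKM. Hollow symbols at the left edge are values of 0. Most genes overlap between dressings, and the symbol far to the left in the Ugt2b row is Quik-clot replicate 2, at 0.0833 FPKM.

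No member passed the test between dressings. The quasi-likelihood F test of edgeR called 0 of 47 members and 0% of the 13872 genes tested at a Benjamini-Hochberg adjusted p under 0.05, and the lowest adjusted p of a member was 0.303. At an unadjusted edgeR p under 0.05 there were 9 members, 5 higher and 4 lower with AKOC, out of 47, beside 12% of all genes (6.48% higher and 5.57% lower). The dressings did not overlap for 8 members, 5 with AKOC higher and 3 with AKOC lower, beside 18.4% of all genes (9.53% and 8.84%). As a share of the members, the first count was above that of all genes and the second near it. Both counts of higher members include Sult4a1, which met the count minimum through its AKOC libraries alone. Both counts of lower members include Sult1d1, which reached 10 counts in 3 Quik-clot libraries and 1 AKOC library. limma-voom called 0 members and 0% of all genes, while DESeq2 called 1 member, Sult4a1, and 1.87% of all genes.

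The signs of the differences were less even. The log2 fold change of AKOC over Quik-clot was positive for 37 of the 47 members, with a median of 0.20, against 48.1% of all genes, with a median of -0.01. By family, it was positive for 21 of 22 GST genes (median 0.31), 9 of 13 UGT genes (median 0.12) and 7 of 12 SULT genes (median 0.10). The positive counts of all members and of SULT genes include Sult4a1, a member only through its AKOC counts. The negative ones include Sult1d1, which met the count minimum through its Quik-clot counts. With library totals as the only scaling these became 19 GST, 6 UGT and 7 SULT genes, and the UGT median became -0.03, while the median of all genes lay at -0.09. The summed FPKM of the GST genes was 4125 ± 836 in AKOC livers and 3238 ± 1607 in Quik-clot livers (mean ± SD, n = 3 each). By library the GST sums were 4932, 3263 and 4179 FPKM in AKOC livers and 3423, 4745 and 1546 FPKM in Quik-clot livers, so Quik-clot replicate 3 was the lowest of all 6. Without it the Quik-clot mean was 4084 FPKM. The SULT sums were 3091 ± 710 in AKOC livers and 2958 ± 1035 in Quik-clot livers, and the UGT sums 1742 ± 131 in AKOC livers and 1618 ± 460 in Quik-clot livers. With all libraries, the 3 differences were smaller than the SD within Quik-clot. In these bulk samples, fewer cells of a type and less RNA per cell cannot be told apart.

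**Figure D2:**
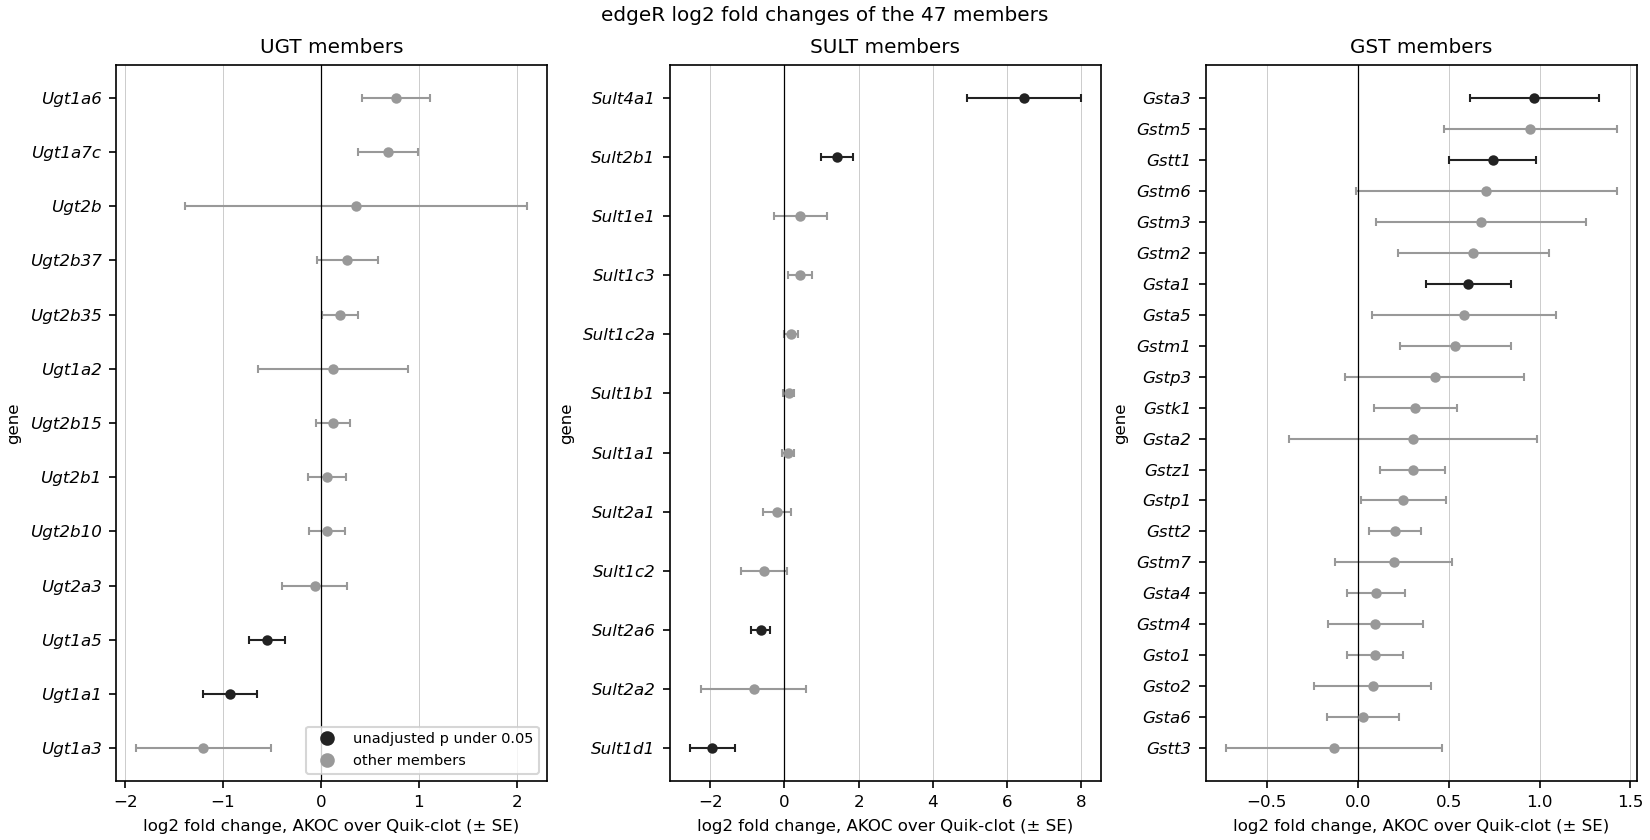
Log2 fold change of AKOC over Quik-clot from edgeR, ± SE, for the 47 members by family, each panel with its own horizontal scale. Black points have an unadjusted p under 0.05 and none passed after adjustment. The GST panel has 21 of its 22 points right of 0, a count that was 19 with library totals as the only scaling and 16 without Quik-clot replicate 3.

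Among the glucuronosyltransferases, Ugt2b supplied a mean of 38.7% of the summed UGT FPKM. It encodes a UGT2B enzyme known in rats for conjugating the steroid androsterone. Its counts were 57545, 96906 and 93507 in AKOC livers and 112476, 9 and 91613 in Quik-clot livers. Quik-clot replicate 2 thus had next to none of a transcript that the other 5 libraries held at 57545 counts or more, at a ratio of 8.38e-05 to the mean CPM of the other Quik-clot livers. AKOC replicate 1 lay at a ratio of 0.514 to the mean of the other AKOC livers. Of the genes tested, 0.324% had Quik-clot replicate 2 below 0.1 of the mean of its group's other libraries. AKOC replicate 1 lay at 0.4 to 0.6 of the mean of AKOC replicates 2 and 3 for 3.2% of them.

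This loss was nearly without parallel in the table. Of the 3603 genes with at least 1000 counts in 5 or more libraries, 2 were under 50 counts in the sixth. They were Ugt2b in Quik-clot replicate 2 and RGD1359290, a ribosomal protein L22 domain gene, in AKOC replicate 3, with 17 counts there and 1228 to 3388 elsewhere. A deletion of this androsterone-conjugating gene is known in part of the Wistar rat stock. The genotype of these animals is not stated in the sources used here, and it was not tested.

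The genes on each side of Ugt2b were present in Quik-clot replicate 2. Ugt2a3, the neighbour before it, had 65.2, 90.0 and 76.2 CPM in AKOC livers and 99.9, 40.8 and 101 CPM in Quik-clot livers. Ugt2b15, the next tested gene after it, had 471, 435 and 569 CPM in AKOC livers and 436, 509 and 408 CPM in Quik-clot livers. Quik-clot replicate 2 was therefore the lowest of all 6 livers for Ugt2a3 and the second highest for Ugt2b15. Ugt2b37 had 449, 393 and 495 CPM in AKOC livers and 260, 567 and 283 CPM in Quik-clot livers, so that Quik-clot replicate 2 was the highest. The UGT2B genes are similar in sequence, and reads of near-identical stretches may have been split between them or dropped by the counting.

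**Figure D3:**
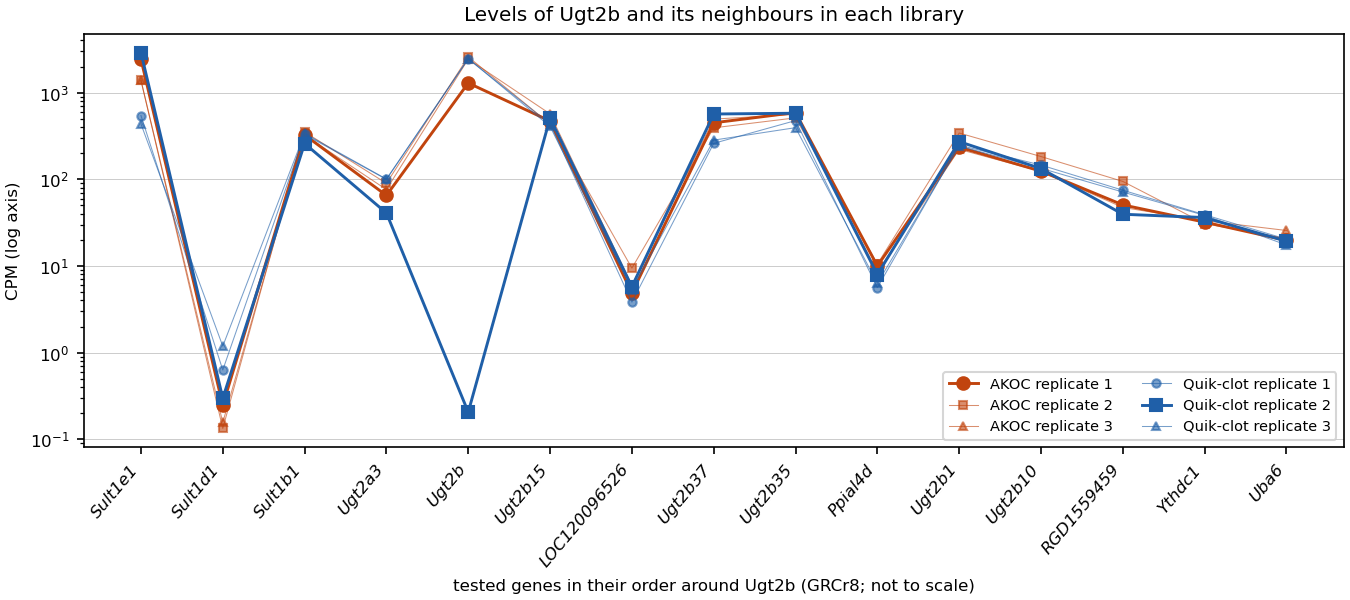
CPM (log axis) in each library of the tested genes around Ugt2b, in their order on the chromosome and not to scale. AKOC replicate 1 and Quik-clot replicate 2 are drawn bold. At Ugt2b the bold Quik-clot line drops to 0.206 CPM while its flanking genes stay at 40.8 and 509 CPM.

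The comparison between dressings for Ugt2b turned on that library. The edgeR log2 fold change was 0.36 ± 1.75 (SE) with all libraries and -0.23 without Quik-clot replicate 2. The UGT sum without Ugt2b was 981 ± 94 FPKM in AKOC livers and 992 ± 203 FPKM in Quik-clot livers (SD, n = 3 each). Ugt2b37, Ugt2b35, Ugt2b15, Ugt2b1, Ugt2b10 and Ugt2a3 had log2 fold changes between -0.06 and 0.27 with all libraries. Without Quik-clot replicate 2 the value for Ugt2b37 was 0.71, with an edgeR adjusted p of 0.151. Ugt2b1 is a phenobarbital-inducible enzyme that conjugates testosterone and morphine in rats, and its log2 fold change was 0.07 ± 0.19.

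Ugt1a1, the enzyme that conjugates bilirubin, was the leading UGT1A gene. It had 133, 96.1 and 88.0 CPM in AKOC livers and 272, 134 and 196 CPM in Quik-clot livers. Every AKOC liver lay below every Quik-clot liver, with the highest AKOC value just under Quik-clot replicate 2. The mean was 106 ± 24 CPM in AKOC livers and 201 ± 69 CPM in Quik-clot livers. The edgeR log2 fold change was -0.93 ± 0.28, with an adjusted p of 0.336. DESeq2 gave -0.94 with an adjusted p of 0.0535. Leaving out any single library left the edgeR value between -1.15 and -0.65.

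Ugt1a5 had the same arrangement. It had 49.2, 34.6 and 34.8 CPM in AKOC livers and 69.1, 51.0 and 53.9 CPM in Quik-clot livers. The lowest Quik-clot liver was just above the highest AKOC liver. The log2 fold change was -0.55 ± 0.19, with an edgeR adjusted p of 0.359.

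Ugt1a6, which conjugates small planar phenols, and Ugt1a7c, its close relative, lay the other way. Ugt1a6 had 8.91, 6.97 and 6.73 CPM in AKOC livers and 4.18, 6.69 and 2.41 CPM in Quik-clot livers. The groups did not overlap in CPM, but Quik-clot replicate 2 was almost level with the lowest AKOC liver. They overlapped in FPKM, scaled by library total alone. There Quik-clot replicate 2 (2.92) lay above AKOC replicates 2 and 3 (2.57 and 2.61). edgeR gave it a log2 fold change of 0.77 ± 0.35 (adjusted p 0.428). Ugt1a7c had 3.86, 4.59 and 4.90 CPM in AKOC livers and 2.31, 4.06 and 1.92 CPM in Quik-clot livers, and Quik-clot replicate 2 overlapped with AKOC replicate 1. For Ugt1a7c the log2 fold change was 0.69 ± 0.31 (edgeR adjusted p 0.42). Without Quik-clot replicate 2 the values became 1.19 for Ugt1a6 and 1.07 for Ugt1a7c.

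Since UGT1A genes differ only in the first exon, the split of their reads between genes is uncertain. The sum over the 6 UGT1A members was 92.8, 57.2 and 56.4 FPKM in AKOC livers and 174, 92.8 and 102 FPKM in Quik-clot livers. AKOC replicate 1 and Quik-clot replicate 2 were level. Ugt1a2 and Ugt1a3 stayed under 1 FPKM in every library.

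Sult1e1, the estrogen sulfotransferase, made up a mean of 36.3% of the summed SULT FPKM. It had 2434, 1391 and 1382 CPM in AKOC livers and 545, 2903 and 436 CPM in Quik-clot livers. Quik-clot replicate 2 was the highest of all 6 and the other Quik-clot livers were the lowest. The edgeR log2 fold change was 0.42 ± 0.71 with an adjusted p of 0.828. Without Quik-clot replicate 2 it was 1.82 with an edgeR adjusted p of 0.105.

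Sult1c3, which sulfates hydroxyarylamines, followed the same order in part. It had 475, 322 and 503 CPM in AKOC livers and 220, 478 and 277 CPM in Quik-clot livers. Quik-clot replicate 2 lay among the AKOC livers and the other Quik-clot livers below them. Its log2 fold change was 0.42 ± 0.32, and 0.80 without Quik-clot replicate 2. The phenol sulfotransferase Sult1a1 (559, 587 and 512 CPM in AKOC livers and 524, 457 and 572 CPM in Quik-clot livers) and Sult1b1, which sulfates thyroid hormone, varied little. Their log2 fold changes were 0.09 ± 0.16 and 0.11 ± 0.16.

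The SULT2A genes sulfate hydroxysteroids and bile acids. Sult2a1 had 379, 334 and 741 CPM in AKOC livers and 713, 341 and 625 CPM in Quik-clot livers. AKOC replicate 3 lay with the 2 high Quik-clot livers, and Quik-clot replicate 2 with the 2 low AKOC livers. The log2 fold change was -0.21 ± 0.38, and 0.005 without Quik-clot replicate 1. Sult2a6 had 194, 290 and 170 CPM in AKOC livers and 355, 262 and 401 CPM in Quik-clot livers. AKOC replicate 2 and Quik-clot replicate 2 overlapped. For Sult2a6 the log2 fold change was -0.64 ± 0.25 with an edgeR adjusted p of 0.40. Sult2a2, a minor relative, ranged from 0.0522 to 3.04 CPM in AKOC livers and from 0.152 to 7.19 CPM in Quik-clot livers.

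In rats Sult1e1 and Sult1c3 are known as male-dominant and SULT2A genes as female-dominant, so other sex-biased genes are set beside them. Cyp2c11, the main male-specific cytochrome P450, had 1766, 767 and 3378 CPM in AKOC livers and 140, 1695 and 118 CPM in Quik-clot livers. Cyp2c13, also male-specific, had 2923, 2253 and 2759 CPM in AKOC livers and 549, 1846 and 546 CPM in Quik-clot livers. As for Sult1e1, Quik-clot replicates 1 and 3 were the lowest for both, and Quik-clot replicate 2 was more than 3 times as high as either. Cyp2c12, the female-specific P450, had 8.69, 17.3 and 74.7 CPM in AKOC livers and 918, 97.0 and 283 CPM in Quik-clot livers. Every AKOC liver was below every Quik-clot liver, and Quik-clot replicate 2 was the lowest of its group.

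The Y-linked genes Kdm5d, Eif2s3y and Uty were present in all 6 libraries. Eif2s3y had 43.1, 40.6 and 42.9 CPM in AKOC livers and 31.7, 41.9 and 30.8 CPM in Quik-clot livers, so no library lacked it. Xist, the RNA of the inactive X chromosome, had 0 counts in the AKOC livers and at most 0.054 CPM in a Quik-clot liver. Ghr, the growth hormone receptor, and Stat5b, the factor it activates, were higher with AKOC at an unadjusted edgeR p under 0.05. They were the 2 higher genes of 18 regulators, and 4 were lower, beside 6.48% and 5.57% of all genes. Ghr averaged 615 ± 63 CPM in AKOC livers and 387 ± 126 CPM in Quik-clot livers. Stat5b averaged 49.5 ± 9.5 CPM in AKOC livers and 34.8 ± 2.4 CPM in Quik-clot livers. The adjusted p values from edgeR were 0.377 and 0.336. The part of these genes in the SULT values was not tested.

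**Figure D4:**
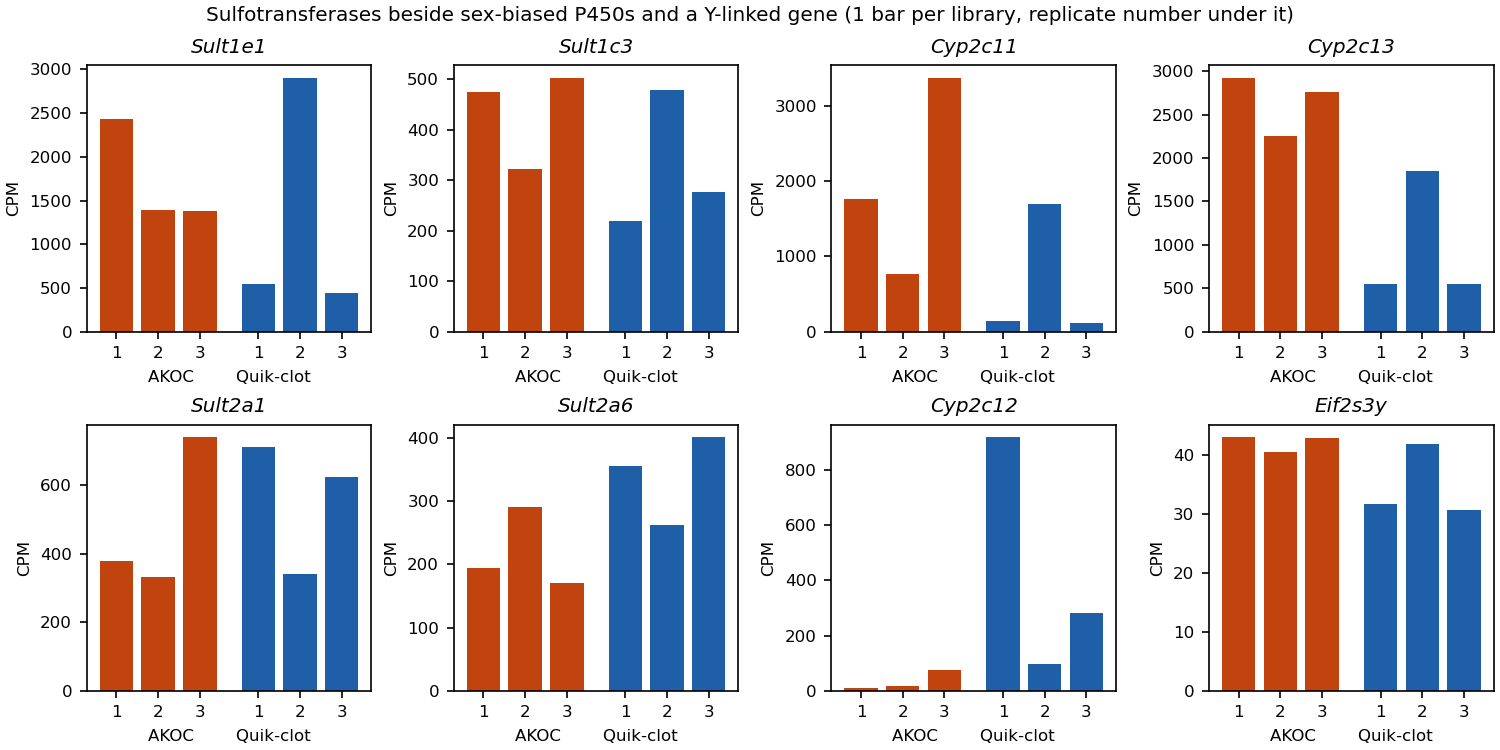
CPM in each library (1 bar per library, AKOC left of Quik-clot) of 4 sulfotransferases, 3 sex-biased P450 genes and Eif2s3y, a Y-linked gene. For Sult1e1, Sult1c3, Cyp2c11 and Cyp2c13, Quik-clot replicates 1 and 3 are the lowest bars. Quik-clot replicate 2 stands above every AKOC liver for Sult1e1, among them for Sult1c3 and Cyp2c11, and below them for Cyp2c13.

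The SULT genes with the largest fold changes had low counts. Sult2b1, a cholesterol and pregnenolone sulfotransferase known mainly from skin, had 1.84, 1.15 and 1.43 CPM in AKOC livers and 0.675, 0.275 and 0.702 CPM in Quik-clot livers. All AKOC livers lay above all Quik-clot livers. For Sult2b1 the log2 fold change was 1.42 ± 0.44 with an edgeR adjusted p of 0.339. Sult1d1, a rodent catecholamine sulfotransferase, had 0.247, 0.133 and 0.156 CPM in AKOC livers and 0.631, 0.298 and 1.19 CPM in Quik-clot livers. All AKOC livers lay below all Quik-clot livers, at 5 to 44 counts per library. For Sult1d1 the log2 fold change was -1.94 ± 0.61 with an edgeR adjusted p of 0.341.

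Sult4a1, a brain member of the family with no established substrate, was the single member called by any setting. It had 11, 67 and 271 counts in AKOC livers and 0, 4 and 0 counts in Quik-clot livers. The AKOC counts were all higher and also spread over a wide range, with AKOC replicate 3 holding most of them. DESeq2 gave a log2 fold change of 6.63 with an adjusted p of 0.0447, and edgeR 6.46 ± 1.55 with an adjusted p of 0.303. Both fitted values rest on 4 Quik-clot reads, and the edgeR value also on its prior count. Sult4a1 is a member only through its AKOC counts.

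The glutathione S-transferases leaned most to higher values with AKOC. Gsta1, an alpha-class subunit abundant in rat liver, had 1072, 1001 and 1146 CPM in AKOC livers and 797, 826 and 490 CPM in Quik-clot livers. The groups did not overlap, and Quik-clot replicate 3 was far below its group. The means were 1073 ± 72 CPM in AKOC livers and 704 ± 186 CPM in Quik-clot livers. The log2 fold change was 0.61 ± 0.23 with an edgeR adjusted p of 0.389, and 0.40 without Quik-clot replicate 3.

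Gsta3, also of the alpha class, had 96.2, 112 and 42.3 CPM in AKOC livers and 38.3, 54.6 and 35.0 CPM in Quik-clot livers. AKOC replicates 1 and 2 were high, and AKOC replicate 3 lay within the Quik-clot range. Its log2 fold change was 0.97 ± 0.36 with an edgeR adjusted p of 0.377. Gstt1, a theta-class enzyme that acts on small halogenated molecules, had 42.9, 48.1 and 31.6 CPM in AKOC livers and 20.7, 32.9 and 19.7 CPM in Quik-clot livers. Only AKOC replicate 3 and Quik-clot replicate 2 overlapped. For Gstt1 the log2 fold change was 0.74 ± 0.24 with an edgeR adjusted p of 0.348.

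Gsta2, the second most abundant GST by FPKM, was the most variable of the abundant ones. It had 653, 373 and 635 CPM in AKOC livers and 324, 918 and 104 CPM in Quik-clot livers. Quik-clot replicate 2 was the highest of all 6 and Quik-clot replicate 3 the lowest. The log2 fold change was 0.30 ± 0.68, and it was -0.16 without Quik-clot replicate 3. Gsta5 showed the same extremes, with 434, 395 and 358 CPM in AKOC livers and 190, 495 and 105 CPM in Quik-clot livers.

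The mu class, which conjugates a broad range of electrophiles, was led by Gstm1. It had 787, 488 and 757 CPM in AKOC livers and 473, 622 and 306 CPM in Quik-clot livers. The groups overlapped through AKOC replicate 2 and Quik-clot replicate 2. Its log2 fold change was 0.54 ± 0.30 with an edgeR adjusted p of 0.502, and it was 0.31 without Quik-clot replicate 3 and 0.80 without Quik-clot replicate 2. All 7 mu and all 6 alpha genes had positive log2 fold changes, with medians of 0.64 and 0.45. Of these 13 genes, 2 had an unadjusted edgeR p under 0.05, beside 12% of all genes. Without Quik-clot replicate 3, 6 of 7 mu and 4 of 6 alpha genes were positive, with medians of 0.31 and 0.12, and Gstm7 (-0.11), Gsta2 and Gsta4 (-0.03) were negative. With library totals as the only scaling, 7 mu and 5 alpha genes were positive.

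The remaining GST classes differed less. Gstz1, which isomerises maleylacetoacetate in tyrosine breakdown, had 400, 456 and 420 CPM in AKOC livers and 388, 377 and 271 CPM in Quik-clot livers. The groups did not overlap in CPM, by a margin smaller than the spread within either. They overlapped in FPKM, scaled by library total alone. There Quik-clot replicate 1 (225) lay above the AKOC livers (224, 214 and 207). The Gstz1 log2 fold change was 0.30 ± 0.18, and 0.16 without Quik-clot replicate 3. Gstp3 and Gstp1 of the pi class, Gstk1 of mitochondria and peroxisomes, and Gsto1 and Gsto2, which reduce dehydroascorbate, had log2 fold changes between 0.08 and 0.42. Gstt3 was the single GST gene with a negative value, -0.13 ± 0.60.

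The GST differences were smaller without Quik-clot replicate 3. That library held the lowest value of 15 of the 22 GST genes and the highest of none, while 19.2% of all genes had their lowest value in it. The median GST deviation from the mean of all 6 libraries, on the log2(CPM + 2) scale, was 0.40, -0.02 and 0.12 in AKOC livers and -0.07, 0.07 and -0.41 in Quik-clot livers. Without Quik-clot replicate 3, 16 of 22 GST genes had a positive log2 fold change, with a median of 0.16, beside 49.5% of all genes. Without Quik-clot replicate 2, 21 of 22 did, with a median of 0.49.

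Acute phase genes were highest in the same library. Their median deviation was -0.15, 0.43 and -0.40 in AKOC livers and -0.65, -0.31 and 0.96 in Quik-clot livers. Quik-clot replicate 3, the library with the lowest GST values, thus had the highest acute phase values, and AKOC replicate 2 the next. Lcn2, a neutrophil and hepatocyte acute phase protein, had 13.6, 262 and 3.10 CPM in AKOC livers and 10.2, 20.9 and 3167 CPM in Quik-clot livers. Between dressings 0 of 12 acute phase genes had an unadjusted edgeR p under 0.05, beside 12% of all genes. Their part in the GST values was not tested.

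**Figure D5:**
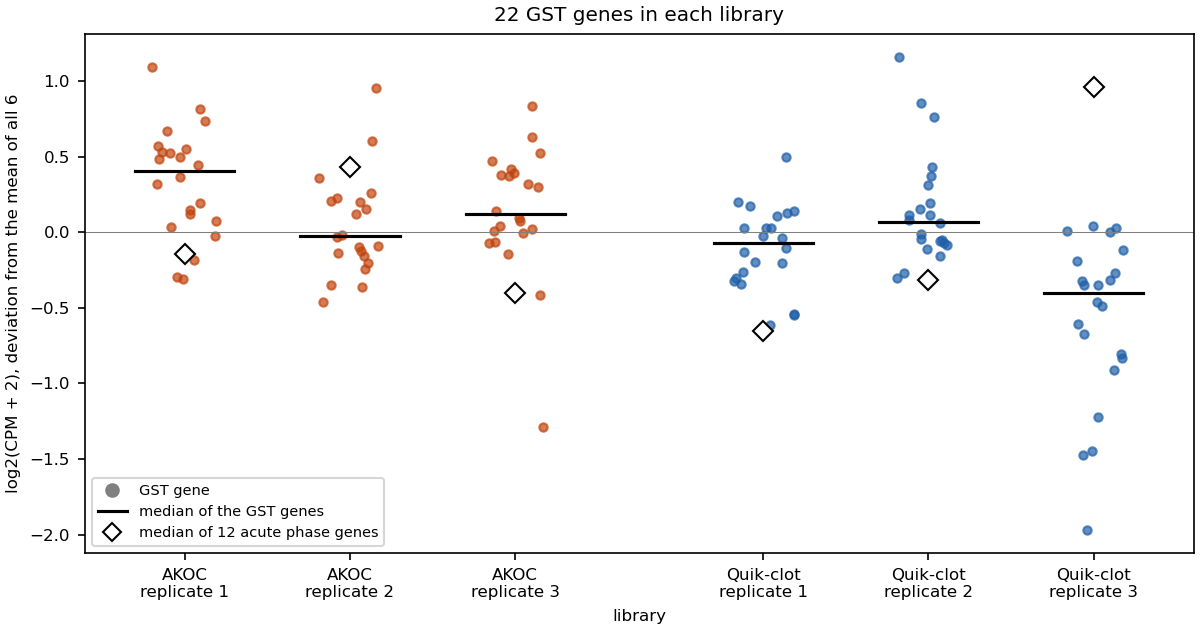
Deviation of each of the 22 GST genes from its mean over 6 libraries, on the log2(CPM + 2) scale, by library, with AKOC libraries left of Quik-clot libraries. Bars are GST medians and diamonds the median of 12 acute phase genes. Quik-clot replicate 3 has the lowest GST median (-0.41) and the highest acute phase median (0.96).

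Across the 3 families, the counts of members higher with AKOC were largest, among the 6 fits that left out a library, without Quik-clot replicate 2. Without it, 14 members were higher and 5 lower with AKOC at an unadjusted edgeR p under 0.05, beside 9.56% and 7.44% of all genes. The dressings then did not overlap for 16 members with AKOC higher and 6 with AKOC lower, beside 18.7% and 17.3% of all genes. Sult4a1, a member only through its AKOC counts, is among the higher members in both counts. Sult1d1, which met the minimum through its Quik-clot counts, is among the lower members in both. No member passed after adjustment in that fit either.

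Beyond the transferases, enzymes that supply or follow conjugation were measured too, and edgeR called 0 of them after adjustment. At an unadjusted edgeR p under 0.05 the share of all genes was 12% (6.48% higher and 5.57% lower). Among 9 genes of UDP-glucuronate supply, 2 had an unadjusted p under 0.05 and both were higher with AKOC. Pgm1, which interconverts glucose phosphates, averaged 130 ± 16 CPM in AKOC livers and 102 ± 8 CPM in Quik-clot livers. Entpd8, a nucleotidase of the bile canaliculus, averaged 21.1 ± 0.8 CPM in AKOC livers and 15.2 ± 2.8 CPM in Quik-clot livers. Ugdh, which makes UDP-glucuronate itself, had a log2 fold change of -0.13 ± 0.15. Among 9 tested genes of sulfate donor supply, Tpst1, a protein-tyrosine sulfotransferase, was the 1 gene past that limit and was lower with AKOC, and Papss2, the main liver PAPS synthase, had -0.17 ± 0.12.

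In glutathione metabolism, 3 of 13 tested genes had an unadjusted edgeR p under 0.05, beside 12% of all genes. Gss, glutathione synthetase, had 36.4, 44.3 and 42.0 CPM in AKOC livers and 26.6, 25.2 and 29.0 CPM in Quik-clot livers. Every AKOC liver was above every Quik-clot liver, by a gap wider than the spread within Quik-clot and narrower than the spread within AKOC. The log2 fold change was 0.60 ± 0.12 with an edgeR adjusted p of 0.282. Glo1, which clears methylglyoxal with glutathione, was also higher (0.25 ± 0.11) and Glrx, glutaredoxin, lower (-0.43 ± 0.16). Gclc and Gclm, the subunits of the rate-limiting ligase, had -0.16 ± 0.25 and -0.38 ± 0.22.

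Glutathione transferases outside the Gst symbols included the most abundant of all, the membrane-bound Mgst1. Its mean over all libraries was 1892 FPKM, and it averaged 1842 ± 269.6 CPM in AKOC livers and 1575 ± 303 CPM in Quik-clot livers, a log2 fold change of 0.23 ± 0.22. Ltc4s, which makes leukotriene C4, had 11, 9.32 and 6.65 CPM in AKOC livers and 0.261, 2.59 and 0.621 CPM in Quik-clot livers. All AKOC livers were above all Quik-clot livers. For Ltc4s the fold change on the log2 scale was 2.95 ± 0.73 with an edgeR adjusted p of 0.303. Nat8, which acetylates cysteine conjugates in the last step to mercapturates, had 7.45, 5.34 and 5.97 CPM in AKOC livers and 11.7, 12.4 and 9.32 CPM in Quik-clot livers. It was lower in every AKOC liver, with a log2 fold change of -0.83 ± 0.18 and an edgeR adjusted p of 0.290. None of the 12 transporters of conjugates had an unadjusted edgeR p under 0.05, beside 12% of all genes. The canalicular pump Abcc2 stood at 0.27 ± 0.17 and the sinusoidal pump Abcc3 at -0.83 ± 0.39. Of 16 other conjugating enzymes, Pemt was higher and Glyatl2 lower at that limit.

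Regulators that act on these genes went in both directions and none passed the test. Of 18 regulators, 10 had a positive and 8 a negative log2 fold change, with a median of 0.03. At an unadjusted edgeR p under 0.05, 4 were lower and 2 higher with AKOC, beside 5.57% and 6.48% of all genes. Nr1i2, the pregnane X receptor, had 79.2, 80.3 and 71.1 CPM in AKOC livers and 154, 93.6 and 117 CPM in Quik-clot livers. The dressings did not overlap, and the log2 fold change was -0.66 ± 0.19 (edgeR adjusted p 0.331). The other 3 were Ppara (-0.63 ± 0.22), the hepatocyte factor Hnf4a (-0.41 ± 0.15) and Nr1i3, the constitutive androstane receptor (-0.85 ± 0.36). The 2 higher were Ghr and Stat5b, given above. Ahr itself had -0.12 ± 0.18 and Nfe2l2, which encodes NRF2, had -0.12 ± 0.16.

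Marker targets of AHR and NRF2 did not all share a direction. Of 10 tested, 3 had a positive and 7 a negative log2 fold change, with a median of -0.11. At an unadjusted edgeR p under 0.05, 2 were higher and 2 lower, beside 6.48% and 5.57% of all genes. Cyp1a1, the classical AHR target, had 0.965, 0.667 and 0.756 CPM in AKOC livers and 7.68, 6.78 and 28.4 CPM in Quik-clot livers. The lowest Quik-clot liver was well above the highest AKOC liver. Its log2 fold change was -4.15 ± 0.63 with an edgeR adjusted p of 0.231. Ugt1a6 and Ugt1a7c, whose upstream windows hold the core motif printed in capitals above, had the opposite sign, while Ugt1a3, whose window holds it too, had the same sign (-1.20 ± 0.69), and nothing about the factor follows from those letters. Hmox1 was lower (-0.75 ± 0.21), while Ephx1 was higher (0.78 ± 0.26), each at an unadjusted p under 0.05. Nqo1 had 0.16 ± 0.42.

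Markers of other cell types and of collection time were measured beside these results. At an unadjusted edgeR p under 0.05, 6.48% of all genes were higher and 5.57% lower with AKOC. Of 10 macrophage markers, 3 were lower at that limit. Their summed FPKM ran from 327 to 524 in AKOC livers and from 456 to 748 in Quik-clot livers. Of 9 tested lymphocyte markers 2 were lower, with sums from 11.5 to 14.8 FPKM in AKOC livers and from 14.5 to 42.4 FPKM in Quik-clot livers, the highest being Quik-clot replicate 2. Bile duct markers summed to 11.1 to 14.1 FPKM in AKOC livers and 10.3 to 19.3 FPKM in Quik-clot livers, with Krt7 at 0 counts in 2 AKOC libraries. Of 7 tested bile duct markers, 1 was lower at the same limit. Endothelial markers summed to 87.7 to 128 FPKM in AKOC livers and 115 to 128 FPKM in Quik-clot livers, and 2 of 8 were lower. Stellate cell and fibroblast markers summed to 60.0 to 76.2 FPKM in AKOC livers and 46.3 to 84.1 FPKM in Quik-clot livers. Of these 10 markers, 2 were higher with AKOC at that limit. Of 11 hepatocyte markers, Cyp2e1 was the 1 gene with an unadjusted p under 0.05, lower with AKOC.

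Of 12 clock genes tested, 11 had an unadjusted edgeR p under 0.05, 3 higher and 8 lower with AKOC. Of all genes 12% did, 6.48% higher and 5.57% lower. Bmal1 averaged 31.0 ± 9.1 CPM in AKOC livers and 7.96 ± 1.67 CPM in Quik-clot livers, and Dbp, a clock output factor that acts on liver enzymes, 5.10 ± 2.80 CPM in AKOC livers and 23.5 ± 4.3 CPM in Quik-clot livers. Their edgeR adjusted p values were 0.231 and 0.258. Of the zonation markers, 3 pericentral genes were lower and 1 higher of 12, and 1 periportal gene of 10 was lower, at an unadjusted p under 0.05. The part of collection time, zonation or cell makeup in the conjugation genes was not tested.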

How the data were processed

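RNA was sequenced from 6 rat liver samples, 3 per dressing, grouped and numbered by the sample titles. The authors deposited raw read counts per gene and FPKM for the same genes; the submitters' processing notes name fastp, HISAT2, HTSeq and the mRatBN7.2 build. Tool versions, annotation and strand setting were not given in the sources used here. The deposited FPKM equal count over length and library total within a relative difference of 1.12e-06. FPKM was used to compare genes and CPM, counts scaled to library size by TMM (trimmed mean of M values; factors 0.902 to 1.12), to compare libraries.

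The test was the two-sided quasi-likelihood F test of edgeR 4.0.16 (R 4.3.3) on counts, with filterByExpr (minimum count 10, minimum total 15) keeping 13872 genes, and Benjamini-Hochberg adjustment over them; a gene was called under 0.05. SE is the log2 fold change over the square root of F. The biological coefficient of variation was 27.2%. Because separate animals are not stated, p-values here reflect only sample-to-sample spread, possibly technical. No library pair of a dressing agreed within sampling noise. An exact test of 3 against 3 cannot go below 0.1. Alternatives were DESeq2 1.42.0, limma-voom (limma 3.58.1), library totals only, no filter, a replicate block and leaving out each library. The edgeR step was tested on simulated data.

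The members and gene lists were chosen with earlier results of these data known. Members named with every value are those with an unadjusted p under 0.05, those whose dressings do not overlap and the 3 most abundant of each family; up to 4 genes of a list were named by smallest p or by abundance. Ugt1a7c, Ugt2a3, Gsta5, Sult1c3, Sult1b1, Sult2a2, Cyp2c11, the Y-linked genes, Xist, A2m, Lcn2, Nr1i3, Ghr, Ahr, Nfe2l2, Nqo1, Gclc, Gclm, Abcc2 and Abcc3 were added after their values were seen. RefSeq upstream windows (GRCr8) were found for 43 of 47 members; they were used for sequence and not for counts. Genes of these families are similar, and the counting may split or drop shared reads.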

Additional observations from a re-analysis of the deposited data

How the results depend on the processing

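Of 47 members, 29 kept the sign of their log2 fold change under every alternative and 18 did not. DESeq2 called 1 member, and every other alternative called 0. With library totals as the only scaling, the dressings did not overlap for 3 members with AKOC higher, and the UGT median was -0.027. Ugt1a6 and Gstz1 overlapped under that scaling. The share of all genes without overlap is not given here for that scaling. Leaving out each library in turn gave 3 to 14 members higher and 2 to 5 lower with AKOC at an unadjusted p under 0.05, beside 4.31% to 9.56% and 3% to 7.44% of all genes, and 6 to 16 members higher and 3 to 6 lower without overlap, beside 13% to 18.7% and 12.8% to 17.3% of all genes. It gave medians of -0.16 to 0.19 for UGT, 0.0043 to 0.14 for SULT and 0.16 to 0.49 for GST. The sign turned for 18 members when a library was left out. Of the members named by the rule on p, overlap and abundance these were Gsta2 (-0.16 without Quik-clot replicate 3; range -0.16 to 1.37), Sult2a1 (0.0048 without Quik-clot replicate 1; range -0.65 to 0.0048) and Ugt2b (-0.23 without Quik-clot replicate 2; range -0.23 to 0.77), and limma-voom gave 4.16 for Ugt2b. Among alternatives chosen after seeing the data, leaving out each library gave log2 ratios of the summed FPKM of -0.08 to 0.33 for UGT, -0.13 to 0.38 for SULT and 0.01 to 0.73 for GST, and the UGT sum without Ugt2b gave -0.02 against 0.11 with it. Deviations of same-numbered samples from their group means correlated at -0.115, -0.169 and -0.260 between dressings. With 3 samples per dressing these deviations are not independent, so the values cannot show whether such samples shared a batch. With the replicate block, 5 members were higher and 3 lower at an unadjusted edgeR p under 0.05, beside 9.06% of all genes in either direction. In that fit the GST median was 0.31 and 0 members were called. The cause of these shifts was not tested. Depth limits Sult4a1, Sult1d1, Sult2a2, Ugt1a2, Ugt1a3 and Gstm6, which had under 10 counts in at least 1 library, as Ugt2b had in Quik-clot replicate 2.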
